A study of Mus musculus with 8 samples.

Results

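The cytosolic ribosomal protein genes encode the protein parts of the ribosome that translates nuclear mRNA, and they were taken from the arrays by symbol. Rpl or Rps followed by digits and at most 1 letter (a, l or x), together with Rplp0, Rplp1, Rplp2 and Rpsa, gave 78 genes of 21597 genes with a symbol, on 130 probes. Of these genes, 46 belong to the large subunit and 32 to the small subunit. Kinases of ribosomal protein S6 and mitochondrial ribosomal proteins were left out by the rule.

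The pancreata of 8 female NOD mice, 12 weeks old, were each measured on a two-color array against a single pool of pancreas RNA from 8 NOD.B10 mice of the same age. NOD mice develop insulitis and autoimmune diabetes. NOD.B10 mice carry the NOD background with a different H2 region (the major histocompatibility complex on chromosome 17) and served as the healthy controls. The NOD mouse was labeled with Cy5 (red) and the pool with Cy3 (green) on every array, so strain and dye cannot be told apart, and the spread between NOD.B10 mice cannot be seen. The file headers place mice 1 to 4 on 1 slide (slide 1) and mice 5 to 8 on another (slide 2), so slide and mice cannot be told apart either. In whole pancreas, fewer cells of a type and less RNA per cell cannot be told apart.

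A ribosome joins a small subunit, which reads the mRNA, to a large subunit, which forms peptide bonds. Their proteins are made in matched amounts, and most of their mRNAs begin with a C followed by a pyrimidine tract (the 5′ terminal oligopyrimidine, or TOP, tract), through which mTOR signalling sets their translation. Acinar cells of the pancreas are among the most active protein-making cells of the body, and their ribosomes line a dense rough endoplasmic reticulum.

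Ribosomal protein probes were among the brightest on the arrays. The median pool signal over the 78 genes was 72570 intensity units against 213.8 over all 18505 genes tested, and the median member stood at the 99.4th percentile of pool signal. Red signal was well above background on all 8 arrays for 77 of the 78 genes. The exception was Rpl3l, a copy of Rpl3 known from skeletal and heart muscle, whose mean pool signal was 34.2 and whose red value on 5 arrays was a stand-in for a signal too weak to measure. No ribosomal protein spot carried a saturation flag on any array. The filter on red signal (at least 25 in at least 4 arrays) kept 129 of the 130 probes and every gene.

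RefSeq start sites on GRCm38.p6 were found for 57 of the 78 genes, with 68 starts. A C at the listed start followed by 4 C or T was present at 19.1% of these starts (13 of 68) and at 2.51% of all 32851 starts. A run of at least 8 C or T within 20 bases of the start, on the transcript strand, was present at 41.2% of ribosomal protein starts and at 16.0% of all starts. Transcript starts were not measured here, so these shares describe listed starts only and do not show which genes lack a TOP tract. The next lines give 15 bases on each side of the first listed start, 5′ to 3′, with runs of 6 or more C or T in capitals. The first 4 show a start inside such a tract, and the last 4 belong to genes whose ratios are described next.
Rps6 (chr4:86857353-86857382, minus strand): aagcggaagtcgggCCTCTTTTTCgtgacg
Rplp2 (chr7:141447636-141447665, plus strand): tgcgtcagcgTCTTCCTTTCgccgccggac
Rps15a (chr7:118116133-118116162, minus strand): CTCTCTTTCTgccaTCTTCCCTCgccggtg
Rps10 (chr17:27635230-27635259, minus strand): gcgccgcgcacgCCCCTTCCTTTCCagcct
Rpl10a (chr17:28328456-28328485, plus strand): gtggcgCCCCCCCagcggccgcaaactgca
Rps19 (chr7:24884577-24884606, plus strand): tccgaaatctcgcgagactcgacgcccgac
Rpl13a (chr7:45128731-45128760, minus strand): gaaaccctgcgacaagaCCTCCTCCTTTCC
Rps23 (chr13:90923107-90923136, plus strand): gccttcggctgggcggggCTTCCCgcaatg
Rpl10a has 2 listed starts and Rps19 has 3.

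In the deposited ratios, most ribosomal protein genes lay near a 1:1 ratio of NOD to pool. The level of the set differed with the normalization: its median log2 ratio was 0.084 as deposited, 0.083 with centered background-subtracted signals and 0.54 when the mean and local background signals were corrected by normexp and normalized by loess. In the deposited ratios, the mean log2 ratio over the 8 mice was within 0.25 of 0 for 62 of 78 genes and within 0.5 for 76 genes. It was above 0 for 54 genes and below 0 for 24. The median of 0.084 (1.06-fold) stood beside -0.076 over all genes tested and -0.024 over the 6190 genes whose red and green signals were both well above background on each of the 8 arrays. The interquartile range of the genes was -0.039 to 0.19, against -0.21 to 0.17 for those 6190 genes. The median SD over the 8 mice was 0.18 for ribosomal protein genes and 0.24 for the 6190 genes.

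In the deposited ratios, no ribosomal protein gene was changed by at least 2-fold at an adjusted p under 0.01 (limma one-sample test, Benjamini-Hochberg over all 28105 probes tested), whereas 14 were at least 2-fold higher under normexp with loess. With the deposited ratios, this call was made for 0.389% of all genes in the higher direction and for 1.29% in the lower direction. Under normexp with loess it was made in the higher direction for 42 genes, the 14 included, which are 0.227% of all genes and 0.679% of the 6190 genes well above background. At an unadjusted p under 0.05 and any fold, 26 genes were higher and 8 lower. The same threshold was passed by 10.8% of all genes in the higher and 25% in the lower direction, and by 22.7% and 26.2% of the 6190 genes well above background.

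With no limit on fold, 7 genes were higher in NOD at an adjusted p under 0.01 and none was lower. The 7 genes are 8.97% of the members, and the same test was passed in the higher direction by 3.29% of all genes and by 7.8% of the 6190 genes well above background. In the lower direction it was passed by 4.8% and 6.88% of these. The share of higher members is therefore near the background of genes of usable signal. All 7 were above 0 on 8 of 8 arrays and on both slides. Markers of other tissues moved in the same comparison. Of 6 tested liver genes (7 listed, 3 of those tested not above background in red on any array), 5 were lower by at least 2-fold, with a median log2 ratio of -2.05 and a summed red signal of 676.6 to 1795. The T cell list had a median of 0.84, with 1 of 9 tested genes higher at any fold. Their part in the ribosomal protein ratios was not tested.

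**Figure D1:**
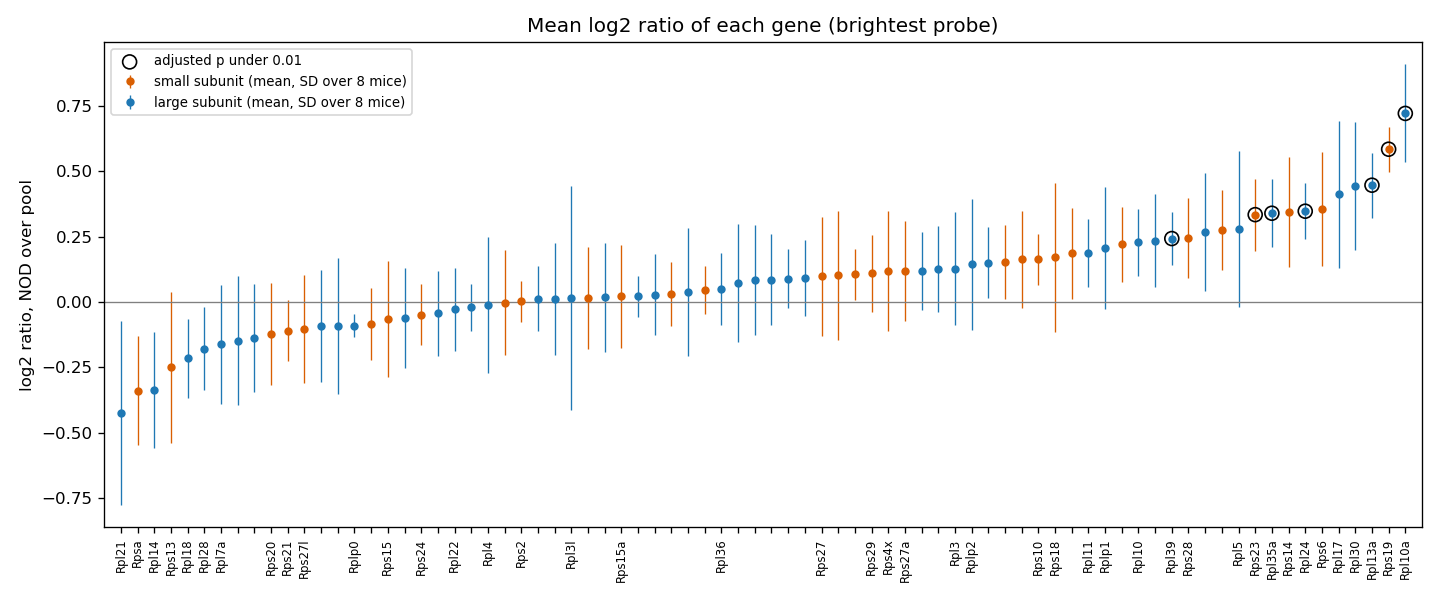
Mean log2 ratio of NOD over the NOD.B10 pool (y axis, bars are SD over 8 mice) for the 78 genes in order of their mean (x axis, with names for genes described in the text), colored by subunit. Circles mark the 7 genes with a limma adjusted p under 0.01, which run from Rpl39 at 0.24 to Rpl10a at 0.72; Rpl21 is lowest at -0.42.

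Rpl10a, a large subunit protein, had the highest mean. Its log2 ratios were 0.52, 0.69, 0.97 and 0.73 in mice 1 to 4 and 0.66, 0.93, 0.84 and 0.44 in mice 5 to 8. The slides overlapped, and the mean was 0.72 ± 0.19 (SD, n = 8; limma adjusted p = 0.000862), or 1.65-fold. The 1 probe for Rpl10a lies at chr17:28057069-28058130 on mm8 (NCBI36), spanning more than its own length and so crossing an intron.

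Rps19, a small subunit protein mutated in Diamond-Blackfan anemia, had the smallest SD of the 7. Its log2 ratios were 0.63, 0.60, 0.52 and 0.60 in mice 1 to 4 and 0.50, 0.45, 0.70 and 0.68 in mice 5 to 8. The mean was 0.58 ± 0.086 (SD, n = 8; limma adjusted p = 0.000233). This brightest probe was designed on the transcript AK012052 (chr7:24597691-24597750, mm8). A dimmer probe on the reference transcript NM_023133 (chr7:24593610-24593935, mm8) ran from 0.10 to 0.53 with a mean of 0.30 ± 0.18 (limma adjusted p = 0.0166), above 0 in 8 of 8 mice. The remaining probe, on AK031403, had a mean pool signal of 11.0 and a deposited ratio of 0 in every mouse.

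Rpl13a, a large subunit protein also known for a role in silencing inflammatory transcripts, averaged 0.45 ± 0.13 (limma adjusted p = 0.00117), the mice running from 0.28 to 0.62. Rpl24 followed at 0.35 ± 0.11, while its other probe, of like brightness, had 0.089 ± 0.20 (limma adjusted p = 0.413). Rps23, which lies near the decoding center, had 0.33 ± 0.14. Rpl39, a short protein of the exit tunnel, had 0.24 ± 0.10. Rpl35a, at 0.34 ± 0.13 (limma adjusted p = 0.00337), falls outside the rule for named genes and was added after its value was seen. Exact sign flips of the 8 ratios gave p = 0.00781, the smallest they can give, for each of the 7 genes.

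Rps19 stayed past the threshold in each of 22 alternatives with 7 or 8 mice, with log2 ratios from 0.29 to 0.70. In the 4 alternatives that changed the background correction or normalization, Rpl10a and Rpl13a stayed past it in 2, and Rpl24, Rpl35a, Rps23 and Rpl39 in 1. With each of the 8 mice left out in turn, Rpl10a, Rpl13a and Rpl24 stayed past it in 8 fits, Rpl35a in 5, Rps23 in 3 and Rpl39 in 2. In the other 10 alternatives, Rpl24 and Rpl39 each stayed past it in 9 and the other genes in 10. Under background-subtracted signals centered on the array median, Rpl13a turned to -0.13. Under normexp with loess the median of the 6190 genes was -0.052. The set therefore moved there by more than these genes did and by more than the SD of 0.086 between its array medians. With centered background-subtracted signals the set median was 0.083, near its deposited value, while that of the 6190 genes was -0.11.

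At the other end, no gene passed the test. Rpl21 had the lowest mean, -0.42 ± 0.35 (limma adjusted p = 0.0432). Its log2 ratios were -0.60, -0.65, -0.69 and -0.64 on slide 1 and -0.37, -0.54, -0.29 and 0.37 on slide 2, so that mouse 8 alone was above the pool. Rpsa, a small subunit protein that is also described as a laminin receptor, had -0.34 ± 0.21 (limma adjusted p = 0.0168) and was below 0 in 8 of 8 mice. Rpl14 had -0.34 ± 0.22, Rps13 -0.25 ± 0.29 and Rpl18 -0.22 ± 0.15.

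The remaining genes at the ends of their subunit did not pass the test at their brightest probe. Among the high ones, Rpl30 had 0.44 ± 0.25, Rpl17 0.41 ± 0.28, Rps6 0.35 ± 0.22 and Rps14 0.35 ± 0.21, with limma adjusted p from 0.0111 to 0.0232. A less bright probe on the same Rpl17 transcript did pass, at 0.26 ± 0.078 (limma adjusted p = 0.00224), and was above 0 in 8 of 8 mice. Rps6 is the target of the S6 kinases. Among the low ones, Rpl28 had -0.18 ± 0.16, Rpl7a -0.16 ± 0.23, Rps20 -0.12 ± 0.20, Rps21 -0.11 ± 0.12 and Rps27l -0.10 ± 0.21.

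The 3 stalk proteins, which recruit elongation factors to the large subunit, did not pass the test. Rplp0 had -0.091 ± 0.045 (limma adjusted p = 0.0254), Rplp1 0.21 ± 0.23 and Rplp2 0.14 ± 0.25. Rplp0 is spotted 10 times on each array, which shows the error within an array. The SD between its 10 spots was 0.059 to 0.071 on the 4 arrays of slide 1 and 0.094 to 0.15 on the 4 arrays of slide 2. The standard error of the mean of 10 spots was therefore 0.019 to 0.022 on slide 1 and 0.030 to 0.047 on slide 2, beside an SD of 0.045 between the 8 mice.

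Rpl5 and Rpl11, which bind 5S ribosomal RNA and can restrain Mdm2, had 0.28 ± 0.30 and 0.19 ± 0.13. Rps27a, made as a fusion to ubiquitin, had 0.12 ± 0.19, and Rpl22 had -0.027 ± 0.16. Of the pairs with a near copy, Rpl3 had 0.13 ± 0.22 while Rpl3l was at background, and Rps27 had 0.098 ± 0.23 beside -0.10 ± 0.21 for Rps27l, a p53 target. For Rpl10, the brighter probe, on the transcript U89405 and placed on chromosome 13, had 0.23 ± 0.13. The probe on the reference transcript NM_052835, on chromosome X, had -0.025 ± 0.19 (limma adjusted p = 0.848). None of these passed the test. Probes for near copies and processed pseudogenes can share sequence, so a ratio may mix loci.

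The subunits differed by less than the SD of their difference between single arrays, which is not the error of a mean over 8 mice. The difference was not tested. The median log2 ratio was 0.10 over the 32 small subunit genes and 0.061 over the 46 large subunit genes, a difference of 0.043. By array, the small minus large difference ran from -0.052 in mouse 3 to 0.12 in mouse 7, with an SD of 0.055 over the 8 arrays, and was above 0 in 6 of 8. It turned to -0.32 with centered background-subtracted signals and to -0.13 with normexp and loess.

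**Figure D2:**
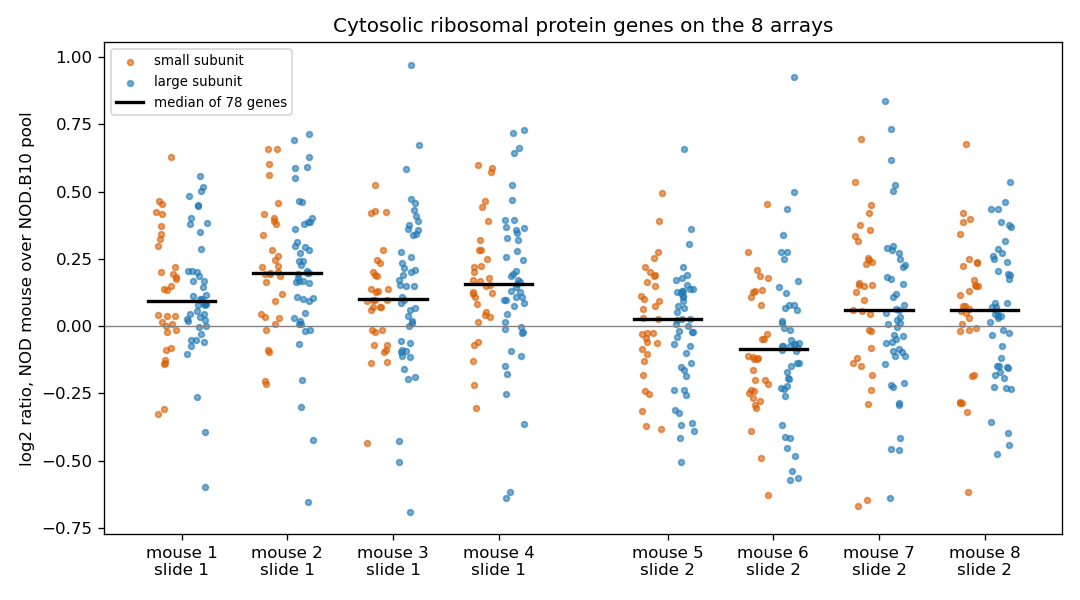
Log2 ratio of NOD mouse over pool (y axis) for each of the 78 genes on each array (x axis, mice 1 to 8 by slide), small subunit in orange and large in blue, with the median as a black line. The medians are 0.094 to 0.20 on slide 1 and -0.085 to 0.059 on slide 2.

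The medians over all 78 ribosomal protein genes separated the slides. They were 0.094, 0.20, 0.10 and 0.16 in mice 1 to 4 and 0.025, -0.085, 0.059 and 0.059 in mice 5 to 8, with no overlap. Genes above 0 numbered 59, 66, 55 and 61 on slide 1 and 41, 26, 46 and 49 on slide 2. Mouse 6 was lowest, with 57 of 78 genes below their slide 2 mean.

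The slide 2 minus slide 1 difference was below 0 for 63 of 78 genes (80.8%), with a median of -0.14. It was below 0 for 45.1% of the 6190 genes well above background. For 20 genes (25.6%) every mouse of slide 2 was lower than every mouse of slide 1, and for 1 gene, Rpl21, every mouse was higher. Such separation was found, lower and higher, for 6.93% and 7.41% of all genes tested and for 11.8% and 13.7% of the 6190 genes. The median difference was -0.40 with centered background-subtracted signals and -0.33 with normexp and loess.

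Single genes, each read at its brightest probe, rarely passed the test of the slides. At an adjusted p under 0.05 (limma two-group test over all probes), 3 genes were lower on slide 2 and none was higher, beside 1.85% lower and 1.99% higher of all genes and 3.68% and 4.33% of the 6190 genes. At an unadjusted p under 0.05, 31 genes were lower and none was higher, beside 10.1% and 10.8% of all genes and 16% and 19.8% of the 6190 genes. Rplp1 had 0.50, 0.30, 0.36 and 0.47 on slide 1 and 0.075, -0.14, 0.059 and 0.016 on slide 2, a difference of -0.40 (limma adjusted p = 0.0362). Rps15a, named after its value was seen, had a difference of -0.34 (limma adjusted p = 0.0455). The differences of Rplp1 and Rps15a turned positive in both re-normalizations of the raw signals, Rplp1 to 0.11 and 0.24 and Rps15a to 0.42 and 0.51. None of the 3 genes was lower at this threshold without mouse 1, 2, 3, 4 or 5. With each of the 8 mice left out in turn, Rplp1 stayed past it in 0 fits and Rps15a in 1. Both stayed past it in 0 of the 4 alternatives that changed the background correction or normalization.

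**Figure D3:**
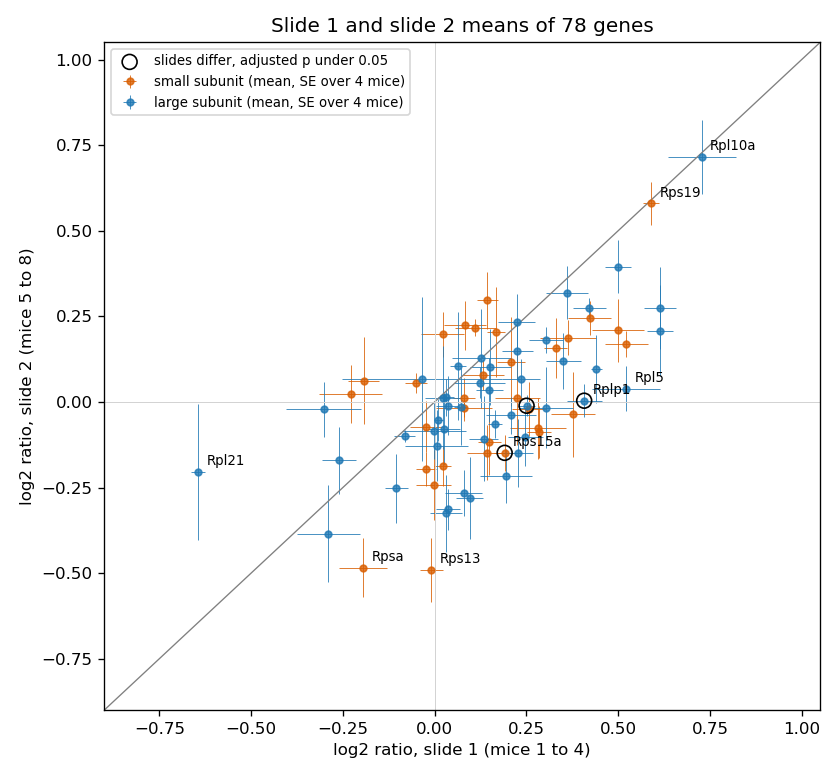
Mean log2 ratio on slide 2 (mice 5 to 8, y axis) against slide 1 (mice 1 to 4, x axis) for the 78 genes, bars are SE over 4 mice, colored by subunit, with the line of equal values. Most points lie below the line (63 of 78); Rpl10a and Rps19 lie close to it, and circles mark the 3 genes past the test of the slides, Rplp1 and Rps15a among them.

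Among the other genes with the lowest differences, Rpl5 had 0.38, 0.72, 0.34 and 0.65 on slide 1 and -0.020, 0.021, 0.23 and -0.075 on slide 2, a difference of -0.48 (limma adjusted p = 0.0742). Rps13 had -0.48, Rps18 -0.41, Rpl4 -0.41 and Rpl17 -0.41. The count of genes past this test depends on the probe chosen. Another bright probe of Rps18 was lower by -0.46 (limma adjusted p = 0.0244), with no overlap of the slides. Less bright probes of Rpl11 (-1.13; limma adjusted p = 0.0439) and Rpl6 (-0.29; limma adjusted p = 0.0455) also passed. The highest were Rpl21 at 0.44, Rpl7a at 0.28, Rps15 at 0.26, Rps27l at 0.25 and Rps29 at 0.18, each with a limma adjusted p of at least 0.275. An exact permutation of 4 against 4 arrays cannot go below p = 0.0286, which was reached by every gene whose slides did not overlap, Rplp1, Rpl5, Rps13, Rpl4, Rpl17 and Rpl21 among them. The spread also differed: the SD within slide 2 was larger than within slide 1 for 62 of 78 genes, with medians of 0.17 and 0.092, and for 70.4% of the 6190 genes.

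Marker lists of other cell types were read on the same slides. The median log2 ratio of the acinar list (17 of 21 genes tested, 1 of them not above background on any array) was -0.015 on slide 1 and 0.21 on slide 2, and its summed red signal was 3488000 to 4299000 and 3904000 to 6199000. That of the T cell list (9 of 10 tested, 1 not above background) was 1.12 and 0.65, with summed signals of 7093 to 11390 and 4778 to 17010. That of the beta cell list (7 of 8 tested, 1 not above background) was -0.55 and -0.0088, with summed signals of 45010 to 174700 and 162200 to 291000. No gene of these 3 lists passed the test of the slides. The list for proliferating cells (7 of 7 tested, 4 not above background in red on any array) had medians of -1.09 and 0.13 and summed signals of 2179 to 3471 and 2682 to 5107. Of its genes, 1, the cyclin Ccna2, was higher on slide 2 (difference 2.06; limma adjusted p = 0.0406) and was not above background in red on any array. The summed signals of each of these 4 lists overlapped between slides, the beta cell list only at the edges of its ranges, and the part of these lists in the ribosomal protein ratios was not tested.

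Probes of the same gene did not always give the same ratio. Of 37 genes with several probes past the filter, the range between probe means was under 0.5 for 29 and over 1 for 2, with a median of 0.27, and 16 genes had probes on opposite sides of 0. In both genes with a range over 1, the outlying probes were dim. For Rps4x, the brightest probe had a mean of 0.12 ± 0.23 at a pool signal of 73690. The other, on the EST BE915090 with no position in the files and a pool signal of 182.8, had -1.40 ± 0.64 (limma adjusted p = 0.00533), the only member probe called at 2-fold. It ran from -2.17 in mouse 4 to -0.46 in mouse 5 and was well above background in red on 1 array.

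Rps24 had 3 probes that differed by 1.08 in mean. The brightest (chr14:23324565-23325890, mm8) had -0.048 ± 0.12. A probe on AK135247 (chr14:23327912-23327971) had 0.66 ± 0.19 (limma adjusted p = 0.0013), from 0.41 to 0.89, and one on AK049387 (chr14:23329232-23329291) had -0.43 ± 0.40. Both dim probes were well above background on 8 arrays. Among bright probes, Rps28 had 0.40 ± 0.18 (limma adjusted p = 0.0051) on the EST CA467389, 0.24 ± 0.15 on the overlapping reference probe and 0.044 ± 0.094 on the neighbouring one.

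**Figure D4:**
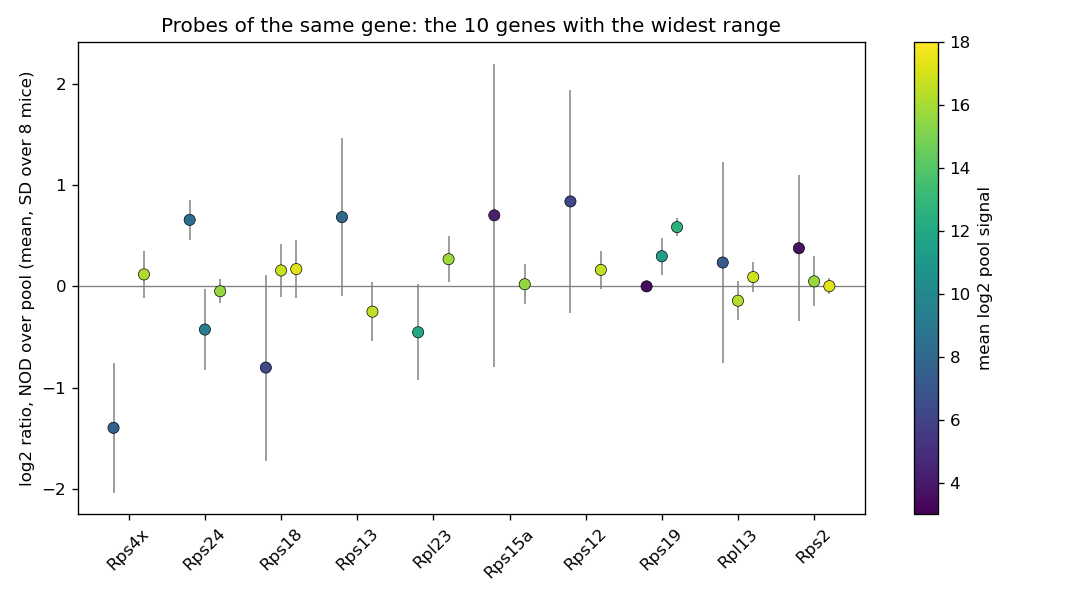
Mean log2 ratio over 8 mice (y axis, bars are SD) of each probe of the 10 genes whose probes differ most (x axis), colored by mean log2 pool signal. The probe of Rps4x at -1.40 is dim (dark), while the bright probes of Rps18 nearly coincide.

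The strains differ by the H2 region, and 7 ribosomal protein genes have probes on chromosome 17. Taking the H2-K1 probe at 33606564 (mm8) as reference, Rps18 lies 0.0441 Mb away and had 0.17 ± 0.28, and Rps28 lies 0.177 Mb away and had 0.24 ± 0.15. Rpl10a lies 5.55 Mb away and Rps10, at 0.16 ± 0.097, 6.24 Mb away. Rps2 had 0.0022 ± 0.078 at 9.16 Mb and Rpl36 0.050 ± 0.14 at 22.7 Mb, and Rpl3l, at background, lies at 9.14 Mb. The ends of the congenic interval are not given in the labels.

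Genes that work with the ribosome were counted in the same fit. Of 20 tested translation partners, 1 rose and 1 fell at an adjusted p under 0.01, near the shares of 7.8% and 6.88% among the 6190 genes. Tpt1, a growth-related translation target, had 0.22 ± 0.088 (limma adjusted p = 0.00486) and Pabpc1, the poly(A)-binding protein, -0.32 ± 0.17 (limma adjusted p = 0.00941). In the test of the slides, 2 of the 20 were lower on slide 2 and none was higher, beside 3.68% lower and 4.33% higher of the 6190 genes. Fau, whose product carries small subunit protein S30, was lower by a difference of -0.55 (limma adjusted p = 0.0126) and Eef1b2 by -0.51 (limma adjusted p = 0.0163). Gnb2l1, which encodes a scaffold on the small subunit, had 0.25 ± 0.19.

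Of 31 tested ribosome biogenesis genes, 2 rose and 1 fell, which is no more than these shares. Rrs1, a large subunit assembly factor, had 1.24 ± 0.53 (limma adjusted p = 0.00404) and was above 0 in 8 of 8 mice, Rpo1-1, an RNA polymerase I subunit, 0.22 ± 0.11, and Nola3 -0.53 ± 0.21. The median slide difference of this list was -0.24. In the test of the slides, 2 of the 31 were lower on slide 2 and none was higher, beside 3.68% lower and 4.33% higher of the 6190 genes. These were Tsr1 (-2.09; limma adjusted p = 0.0264), well above background in red on 4 arrays, and Rpo1-4 (-0.73; limma adjusted p = 0.0423). Of 13 tested growth signalling genes, 1 rose and 2 fell, beside the same shares of 7.8% and 6.88%. Rps6kb1 rose (0.46 ± 0.17; limma adjusted p = 0.00282) and Eif4ebp2 (-0.43 ± 0.20) and Rps6kb2 (-0.77 ± 0.37, not above background in red on any array) fell. These kinases and inhibitors link mTOR to translation. Between slides, 1 of the 13, Larp1, was lower on slide 2 (-0.56; limma adjusted p = 0.0167) and none was higher.

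The 75 mitochondrial ribosomal protein genes tested had a median of -0.10, with 0 higher and 5 lower at an adjusted p under 0.01 (limma), beside 7.8% higher and 6.88% lower of the 6190 genes. Their medians were -0.13 on slide 1 and -0.093 on slide 2, with a median slide difference of 0.014, beside -0.14 for the cytosolic genes. The median slide difference was also -0.14 for the translation partners and -0.15 for the growth signalling genes. The difference between these sets was not tested.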

How the data were processed

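Each array was deposited as a table of spots with the log10 ratio of NOD (red) to NOD.B10 pool (green) and the intensity in each dye. The authors' image software was Feature Extraction 10.7.3.1 from Agilent, which subtracted background, detrended each array, normalized the dyes by linear and lowess steps and put stand-ins in place of weak signals. Flags for background, saturation and irregular spots are also deposited. Probe positions are on mm8 (NCBI36).

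Ratios were converted to log2 and averaged over the spots of a probe. A probe entered the tests if it had a symbol and its red processed signal reached 25 on 4 or more arrays (28105 probes). limma (version 3.58.1, in R 4.3.3) tested each against 0 and between slides, with Benjamini-Hochberg adjustment. A gene was represented by its brightest probe over both dyes (18505 genes). A call required a change of 2-fold or more with adjusted p below 0.01 (slides: 0.05, any fold). Single genes were also tested with 256 exact sign flips and 70 exact slide allocations, two-sided. Precision is limited by the 8 mice. The fits were tested on simulated data, where estimates were unbiased and most planted changes in probes of large spread were missed.

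Named genes were the 5 highest and 5 lowest of each subunit, genes fixed for a role, the 5 highest and 5 lowest slide differences, and genes whose probes differ by more than 1. The ribosomal protein genes, the lists and these rules were chosen with earlier results of these data known. Start sites are from RefSeq on GRCm38.p6 and were not joined to mm8 positions. Rpl10l and Rpl39l were not analysed here, and some results are not reported here. Tables were made with Python 3.11.15 and pandas 2.3.3. Alternatives covered filters, flags, background correction, normalization, tests, thresholds, probe choice, slides and each mouse left out.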

Additional observations from a re-analysis of the deposited data

Results flagged for a closer look

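In 2 of 40 sets of 8 values examined (38 named genes, the array median and the subunit difference), a single mouse stood apart from the other 7 beyond Dixon's critical value for 8 samples. Chance flags about 1 in 20. Rpl21 was 0.37 in mouse 8, with the other mice from -0.69 to -0.29. Rps4x was -0.39 in mouse 6, with the other mice from 0.096 to 0.40. No explanation was tested.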

How the results depend on the processing

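No ribosomal protein gene was called lower at 2-fold in any alternative, and none was called higher except 14 under normexp with loess and 1 at a fold of 1.5. Genes higher at any fold numbered 7, against 21 under normexp with loess, 3 from the ratio of processed signals, 13 with slide as a covariate, 19 at an adjusted p under 0.05, and 0 on slide 1 alone and on slide 2 alone (4 mice each). Genes lower at any fold numbered 0, against 1 with slide as a covariate, 5 at an adjusted p under 0.05 and 1 with the mean over all probes. The median log2 ratio moved from 0.084 to 0.54 under normexp with loess. The small minus large difference moved from 0.043 to -0.32 with centered background-subtracted signals and to -0.13 under normexp with loess, and the median slide difference from -0.14 to -0.40 and -0.33. Genes lower on slide 2 numbered 3, against 1 with the filter on signal well above background, 7 under normexp with loess (and 1 higher), 0 from the ratio of processed signals, 0 with centered log ratios, 1 with the plain statistic, 5 with array weights and 0 at an adjusted p under 0.01. The cause of these changes was not tested. Leaving out 1 mouse gave 4 to 9 genes higher (4 without mouse 3 or mouse 4), 0 to 1 lower and 0 to 2 lower on slide 2 (1 without mouse 7 or mouse 8), a median of 0.053 to 0.091, a slide median of -0.17 to -0.11 and a subunit difference of 0.026 to 0.058.

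Among the genes named here that were past the test as reported or under the alternative, directions that turned were Rpl13a (-0.13 with centered background-subtracted signals), Rps21 (0.95 under normexp with loess), Rps4x (-0.64 with the mean over all probes), and the slide differences of Rplp1 (0.11 and 0.24) and Rps15a (0.42 and 0.51) under those re-normalizations, Rps15a also 0.65 with the mean over all probes. Of 1838 recomputed values of single genes, another 91 turned sign while past the test in neither, 21 of them under normexp with loess, 18 with centered background-subtracted signals, 3 on slide 1 alone and 7 on slide 2 alone. No paired analysis was possible because the mouse numbers name arrays of 1 group. No spot was saturated, so leaving saturated spots out changed nothing.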
